A study of Mus musculus with 6 samples.

Results

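The 6 genes Rhox5, Rhox8, Eppin, Drd4, Cldn3 and Tubb3 were taken as a named set of genes that respond to androgen in Sertoli cells. They were found by symbol among the 55536 genes of the count table, and all 6 were among the 20744 genes that passed the filter on low counts. RNA came from whole testes of 4-month-old male mice of 3 genotypes, with 2 mice and so 2 libraries per genotype, and every line was on the FVB/NJ background. WT mice were FVB/NJ. P2KO mice carried a gene trap in which LacZ and neomycin sequence takes the place of part of Padi2 exon 1. DKO mice carried the same Padi2 trap and a small CRISPR deletion in exon 1 of Padi4, in a line from 1 founder, so that the DKO group is a model of that line only. Both alleles are in the germ line and not restricted to a cell type.

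Androgens made by Leydig cells are needed for spermatogenesis. They act on it mainly through the Sertoli cells, which surround and nourish the germ cells, and there they change the transcription of genes such as the members. The classical androgen response element is a pair of short half-sites in opposite orientation with a spacer between them. Padi2 and Padi4 encode peptidylarginine deiminases, which convert arginine to citrulline in histones and other proteins. The comparisons address whether genes tied to androgen action in Sertoli cells differed in testes of mice with the Padi2 trap alone or with both alleles.

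Promoter windows are shown for the members to set each beside the letters of the classical androgen response element, although no binding was measured in these mice. RefSeq windows on GRCm38.p6, from 250 bases before to 50 after a gene's start, were found for 5 of the 6 members. The window of Rhox8 was not among them. Each was searched on both strands for the element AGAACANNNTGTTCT, which has 12 scored letters, and for its half-site AGAACA, which is part of it. Other arrangements of half-sites were not scored, so the matches do not show which members hold a response element of any form. The stretch that comes closest to the element is given for each member, 5′ to 3′ on the strand of the gene, with the letters that match in capitals.
Eppin, chr2:164593651-164593665, minus strand: AGAACttggTGTTCc
Drd4, chr7:141291773-141291787, plus strand: AcAACctgcTtTTCT
Rhox5, chrX:37754503-37754517, plus strand: tcAcCAattgGTTCT
Cldn3, chr5:134986142-134986156, plus strand: AGAAgAgcgaGcTCc
Tubb3, chr8:123411327-123411341, plus strand: AGgggcctggGTTCT

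Eppin came closest, with 10 of the 12 letters, a match found in 1.84% of all 32851 windows of this length. Drd4 matched 9 letters, as 14.5% of windows did at least, and Rhox5 and Cldn3 matched 8, as 57% did at least. Tubb3 matched 7 letters. The half-site stood once in the windows of Eppin and Rhox5, each time outside the closest stretch, and in none of the other 3, and 19% of all windows hold it. The window of Rhox5 belongs to a start that lies 50234 bases upstream of the start of the gene in the annotation used for the counts. The Eppin window, chr2:164593522-164593821 on the minus strand, is printed whole as the one with the closest match, whose 15 bases are in capitals and begin 94 bases before the start.
Eppin: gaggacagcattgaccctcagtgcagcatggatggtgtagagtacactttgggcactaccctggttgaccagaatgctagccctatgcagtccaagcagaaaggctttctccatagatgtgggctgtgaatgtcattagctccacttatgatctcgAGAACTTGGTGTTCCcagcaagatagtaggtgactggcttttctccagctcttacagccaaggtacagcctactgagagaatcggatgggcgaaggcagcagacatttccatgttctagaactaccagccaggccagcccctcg

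The libraries held 21939393 to 27306679 counts on genes. Padi2 had 47 and 64 counts in WT, 100 and 55 in P2KO and 59 and 83 in DKO. The log2 fold change of Padi2 against WT was 0.40 in P2KO and 0.35 in DKO, so its counts did not fall, and neither was called. By RT-PCR of salivary gland and western blot of spleen, the paper reports no Padi2 transcript and no PAD2 protein in P2KO and DKO mice. A count over the whole gene does not single out the replaced part of exon 1. A gene on the other strand shares 149 exon bases with Padi2. The difference between these counts and the paper's result was not tested. Padi4 had 20 and 43 counts in WT, 11 and 10 in P2KO and 4 and 4 in DKO. Its fall in DKO against WT passed the test (log2 fold change -2.94, SE 0.513, adjusted p = 2.78e-04, edgeR's quasi-likelihood test), which bears on the RNA level and not on the small deletion itself. The log2 fold change of Padi4 was -1.63 in P2KO against WT and -1.31 in DKO against P2KO. Neither was called with the filter used throughout, although the first was called with no filter on low counts. The epididymal genes Lcn5 and Lcn10 had 0 counts in all 6 libraries, and 8 of 10 epididymal genes did not pass the filter. The other 2, Cst12 and Rnase10, were counted in all libraries and not called in any comparison. All 15 Sertoli cell markers were measured.

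Of the 6 members, Rhox8 fell in DKO testes, 1.86-fold against WT and 1.98-fold against P2KO, and none of the other 5 was called in any comparison. An adjusted p under 0.05 over all tested genes was taken as a call. In DKO against WT, 1 of 6 members was called, where 3.22% of all tested genes were (668 genes). In DKO against P2KO, 1 of 6 was called, where 1.21% of all tested genes were (250 genes). In P2KO against WT, 0 of 6 were called by edgeR or by DESeq2, 0 had an unadjusted p under 0.05, and 0.337% of all tested genes were called (70 genes). The median log2 fold change of the members was 0.06 in P2KO against WT, -0.19 in DKO against WT and -0.22 in DKO against P2KO, where the medians of all tested genes were 0.0035, -0.0048 and -0.0028. Comparisons that share libraries are not independent: both comparisons of DKO use the same DKO mice.

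**Figure D1:**
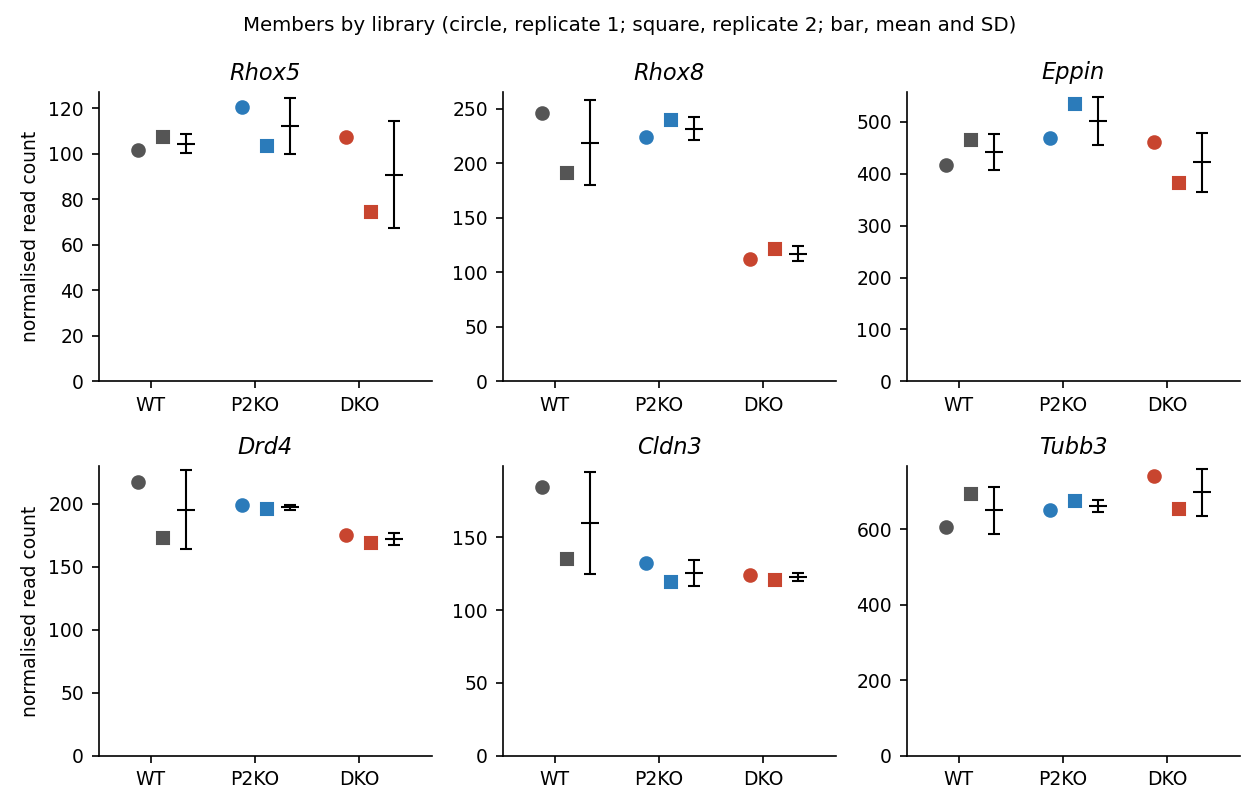
Normalised read count of each member (vertical axes, each from 0) in WT, P2KO and DKO libraries (horizontal axis). Circles are replicate 1, squares are replicate 2 and bars are the mean and SD of 2. The DKO libraries of Rhox8, at 112 and 122, sit below its other 4 libraries, at 192 to 247.

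Rhox5 and Rhox8 are homeobox transcription factor genes of the reproductive homeobox cluster on the X chromosome. Rhox5 is a standard marker of androgen action in Sertoli cells, and Rhox8 is another member of the cluster expressed there. In GRCm38 and GENCODE mouse release 21, Rhox8 (ENSMUSG00000064137) lies on the minus strand at chrX:37874778-37878944, with 1204 exon bases in 4 exons. Its raw counts were 219 and 207 in WT, 253 and 225 in P2KO, and 117 and 115 in DKO. Scaled to a common library size, these are normalised counts of 247 and 192 in WT, 224 and 240 in P2KO, and 112 and 122 in DKO. Both DKO libraries were below every WT and P2KO library. The WT and P2KO libraries overlapped.

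The mean normalised count of Rhox8 was 219 ± 39.0 (SD, n = 2) in WT, 232 ± 10.7 in P2KO and 117 ± 6.96 in DKO. Rhox8 was 1.86-fold lower in DKO than in WT (log2 fold change -0.90, SE 0.153, 95% interval -1.21 to -0.59, adjusted p = 1.91e-04, edgeR's quasi-likelihood test). It was 1.98-fold lower in DKO than in P2KO (log2 fold change -0.99, SE 0.151, 95% interval -1.29 to -0.68, adjusted p = 7.41e-05). In P2KO against WT the log2 fold change was 0.09 (SE 0.139, 95% interval -0.19 to 0.37, adjusted p = 0.918). Ranked by fold among the called genes, Rhox8 was the 43rd largest of the 240 falls in DKO against WT and the 23rd largest of the 124 in DKO against P2KO. Leaving out any single library gave a log2 fold change from -1.08 to -0.72 in DKO against WT, and the call held. It also held for genes off chromosome 4 and with an offset for gene length.

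Rhox5 (ENSMUSG00000095180, plus strand, chrX:37804842-37808876, 754 exon bases) had normalised counts of 101 and 107 in WT, 121 and 103 in P2KO, and 107 and 74.2 in DKO. The second DKO library was the lowest of the 6, while the first lay within the WT range. The means were 104 ± 4.24, 112 ± 12.3 and 90.7 ± 23.4 (SD, n = 2). The log2 fold change was -0.20 in DKO against WT (SE 0.192, 95% interval -0.59 to 0.19, adjusted p = 0.733) and -0.30 in DKO against P2KO (95% interval -0.68 to 0.08, adjusted p = 0.564). It was 0.10 in P2KO against WT (95% interval -0.27 to 0.48). With single libraries left out the value in DKO against WT ran from -0.50 to 0.036 and that in DKO against P2KO from -0.60 to -0.066. The raw counts of Rhox5 were 70 to 136 per library, the fewest of the 6 members, and its intervals are the widest. A fall of the size of that of Rhox8 lies outside the interval of Rhox5 in DKO against WT.

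Rhox8 stood lower relative to Rhox5 within the DKO libraries. There were 2.43 and 1.78 Rhox8 counts per Rhox5 count in WT, 1.86 and 2.32 in P2KO, and 1.04 and 1.64 in DKO. Both DKO libraries were below the other 4, although the second lay close to the lower WT library. The ratio is given as a description and was not tested.

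In RNA of a whole testis, fewer Sertoli cells and less RNA of a gene per Sertoli cell cannot be told apart. The summed normalised counts of the 15 Sertoli cell markers were therefore set beside Rhox8. They ran from 35061 to 36850 in WT, 36443 to 37811 in P2KO and 32343 to 36395 in DKO. The mean of DKO was 4.41% below that of WT. Clu alone made up 17249 of the WT mean of 35956 and 16573 of the DKO mean of 34369, so the sum does not weigh the markers equally. Per 1000 marker counts, Rhox8 had 6.70 and 5.47 counts in WT, 6.16 and 6.33 in P2KO, and 3.08 and 3.77 in DKO. The DKO libraries were again below the other 4. Of the 15 markers, 0 were called in DKO against WT by edgeR with TMM scaling and the filter used throughout or by DESeq2, which gave 2 of them no adjusted p, and 1, Aard, had an unadjusted p under 0.05 (log2 fold change -0.24). Aard was called in that comparison with upper-quartile scaling (-0.26), with no filter or a filter on a mean of 50 counts (-0.25 in each case) and without the second WT library (-0.40). All 15 had a negative log2 fold change in DKO against P2KO, with a median of -0.085 against -0.0028 for all tested genes, and the mean sums were 37127 in P2KO and 34369 in DKO. Of these 1, Aard, was called (log2 fold change -0.36, adjusted p = 0.00391). Its adjusted p was 0.0664 without the second P2KO library (-0.35), 0.0787 without the first DKO library (-0.38) and 0.132 without the second (-0.35). The part of this shift in the fall of Rhox8 was not tested.

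**Figure D2:**
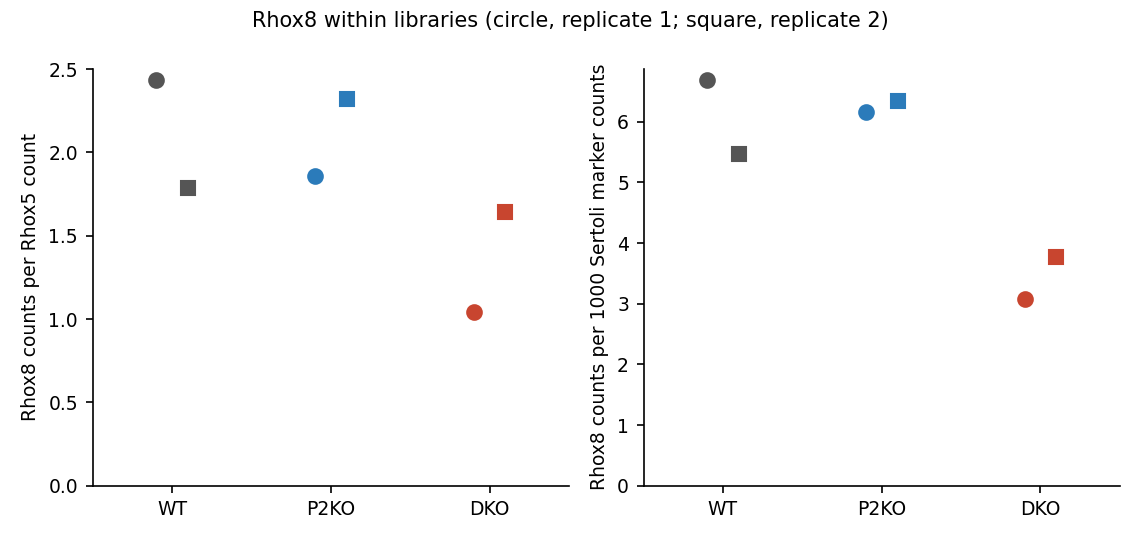
Rhox8 counts per Rhox5 count (left axis) and per 1000 summed counts of 15 Sertoli cell markers (right axis) in each library, by genotype (circle, replicate 1, and square, replicate 2). DKO libraries, at 1.04 and 1.64 on the left and 3.08 and 3.77 on the right, lie below all WT and P2KO libraries.

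Markers of other cells of the testis did move in DKO against WT. Of 8 Leydig cell markers, 4 rose (Star, Cyp11a1, Cyp17a1 and Hsd3b6) and 1 fell (Hsd3b1), and their summed normalised counts ran from 18365 to 18672 in WT, 18732 to 20878 in P2KO and 19946 to 24102 in DKO. Of 7 markers of germ cells after meiosis, the protamine gene Prm1 and the transition protein gene Tnp1 fell, and their sum ran from 353067 to 365225 in WT, 301406 to 330916 in P2KO and 322318 to 323868 in DKO. No marker of peritubular myoid cells, macrophages, endothelium, germ cells before meiosis or meiotic germ cells was called in DKO against WT by edgeR or DESeq2 on all 6 libraries, where DESeq2 gave no adjusted p to 2 of 5 macrophage and 2 of 5 endothelium markers, and 3 of these markers had an unadjusted p under 0.05 (Tek, Kdr and Dmrt1). DESeq2 on all 6 libraries called 2 of the 8 Leydig cell markers and 0 of the 7 markers of germ cells after meiosis in that comparison. Of the same lists, the Leydig cell marker Hsd3b6 was higher in DKO against P2KO (log2 fold change 0.63, edgeR adjusted p = 2.93e-07), and the transition protein gene Tnp2 was lower in P2KO against WT (-0.29, edgeR adjusted p = 7.62e-04). No other marker of the 2 lists was called in these comparisons by edgeR, and DESeq2 on all 6 libraries called 1 marker in each case. The part of these shifts in the fall of Rhox8 was not tested.

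The other Rhox genes were mostly too low to test. The annotation holds 42 Rhox genes and pseudogenes, of which 8 passed the filter, and Rhox8 was the only one of the 8 that was called in a comparison. In DKO against WT all 8 had a negative log2 fold change, of which that of Rhox13 turned to 0.058 with an offset for gene length. For the 6 that are not members, the range was -0.71 to -0.03 and the median -0.33, and 0 of the 6 were called by edgeR. DESeq2 gave an adjusted p to 1 of the 6 and did not call it, and 1, Rhox11, had an unadjusted p under 0.05. Rhox11 had the most counts of the 6. Its normalised counts were 104 and 92.6 in WT, 99.3 and 104 in P2KO, and 81.4 and 66.8 in DKO, so that both DKO libraries were lowest (log2 fold change against WT -0.39, SE 0.193, adjusted p = 0.351). Rhox13, with 57.5 and 55.5 in WT and 49.8 and 61.5 in DKO, had a log2 fold change of -0.03. In DKO against P2KO only 3 of these 6 were negative. Rhox2a, Rhox3f and Rhox3h belong to runs of like-named genes in the cluster. Rhox11 has annotated pseudogenes, of which Rhox11-ps2 passed the filter with 15 to 26 counts per library. Copies were sought for the members only, so sharing of reads among these genes was not tested and their values are uncertain.

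Eppin (ENSMUSG00000017733, minus strand, chr2:164588343-164593594) encodes a protease inhibitor with a WAP and a Kunitz domain that coats sperm. Its normalised counts were 417 and 466 in WT, 469 and 534 in P2KO, and 462 and 382 in DKO. The P2KO libraries were above both WT and both DKO libraries, narrowly in the case of the second WT library. The means were 441 ± 34.5, 502 ± 46.1 and 422 ± 56.6 (SD, n = 2). The log2 fold change was 0.18 in P2KO against WT (95% interval -0.04 to 0.39, adjusted p = 0.682), -0.07 in DKO against WT (95% interval -0.29 to 0.15, adjusted p = 0.865) and -0.24 in DKO against P2KO (95% interval -0.46 to -0.03, adjusted p = 0.330). The last had an unadjusted p of 0.0275, as one of 2458 genes with a p under 0.05 in that comparison, and was not called. The value in DKO against WT turned to 0.022 with an offset for gene length, 0.019 without the second WT library and 0.061 without the second DKO library. With single libraries left out that in DKO against P2KO ran from -0.39 to -0.12 and that in P2KO against WT from 0.082 to 0.27.

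Drd4 (ENSMUSG00000025496, plus strand, chr7:141292006-141296464) encodes a dopamine receptor coupled to inhibitory G proteins. Its normalised counts were 217 and 173 in WT, 199 and 196 in P2KO, and 175 and 169 in DKO. Both DKO libraries lay below both P2KO libraries, and the 2 WT libraries spanned nearly all the others. The log2 fold change was 0.02 in P2KO against WT, -0.17 in DKO against WT (SE 0.144, 95% interval -0.47 to 0.12, adjusted p = 0.663) and -0.20 in DKO against P2KO (95% interval -0.49 to 0.09, adjusted p = 0.632). With single libraries left out the value in DKO against WT ran from -0.34 to -0.014. Of the 5 dopamine receptor genes only Drd4 and Drd2 passed the filter, and neither was called by edgeR or DESeq2 on all 6 libraries, although DESeq2 gave 1 of them no adjusted p in the comparisons of DKO, with an unadjusted p under 0.05 for Drd2 in both comparisons of P2KO. Drd2 had normalised counts of 57.5 and 57.4 in WT, 33.7 and 46.8 in P2KO, and 64.2 and 56.2 in DKO.

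Cldn3 (ENSMUSG00000070473, plus strand, chr5:134986214-134987472) encodes a claudin, a membrane protein of the tight junctions from which the blood-testis barrier is built, and has a single exon. Its normalised counts were 185 and 135 in WT, 132 and 119 in P2KO, and 125 and 121 in DKO. The first WT library stood apart, and the second lay just above the higher P2KO library. The means were 160 ± 35.1, 126 ± 9.14 and 123 ± 2.59 (SD, n = 2). The log2 fold change was -0.33 in P2KO against WT (SE 0.164, 95% interval -0.67 to 0.0013, adjusted p = 0.583) and -0.37 in DKO against WT (SE 0.166, 95% interval -0.71 to -0.03, adjusted p = 0.287), and it was -0.04 in DKO against P2KO. Without the first WT library the log2 fold change in DKO against WT was -0.14, and without the second it was -0.59. The same values in P2KO against WT were -0.10 and -0.55. Cldn3 shares 40 exon bases with Wbscr25, a gene on the other strand with 8460 to 10472 counts per library, and as the strand setting of the deposited counts is not given in the sources used here, reads of the 2 genes in that stretch cannot be told apart.

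Tubb3 (ENSMUSG00000062380, plus strand, chr8:123411424-123422015) encodes a beta-tubulin subunit of microtubules that is best known from neurons. Its normalised counts were 606 and 693 in WT, 651 and 674 in P2KO, and 740 and 654 in DKO. The genotypes overlapped in all 3 comparisons. The log2 fold change was 0.02 in P2KO against WT, 0.10 in DKO against WT (SE 0.0907, 95% interval -0.08 to 0.28, adjusted p = 0.702) and 0.08 in DKO against P2KO. The value in DKO against WT was 0.16 with an offset for gene length and ran from 0.00085 to 0.20 with single libraries left out. The intervals of Tubb3 are the narrowest of the 6 members. Tubb3 lies within the span of another gene on the same strand, with which it shares 0 exon bases.

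**Figure D3:**
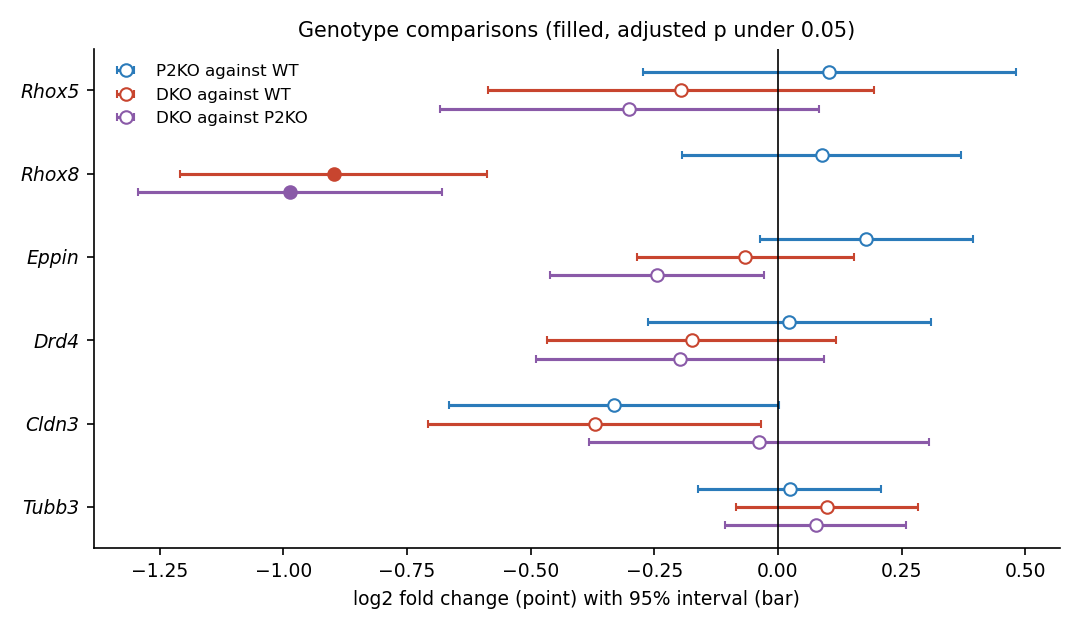
Log2 fold change (horizontal axis) of each member in P2KO against WT, DKO against WT and DKO against P2KO, with bars for the 95% interval and filled points for an adjusted p under 0.05. The 2 filled points are Rhox8 at -0.90 and -0.99, and the other 5 members lie between -0.37 and 0.18.

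The libraries of the genotypes compared often did not overlap for the members, as for genes at large. In P2KO against WT this held for 1 member that was higher (Eppin) and 1 that was lower (Cldn3), and for 37.5% of all tested genes. In DKO against WT it held for 2 that were lower (Rhox8 and Cldn3) and for 43.2% of all tested genes. In DKO against P2KO it held for 3 that were lower (Rhox8, Eppin and Drd4) and for 42.8% of all tested genes. With 2 libraries per genotype such counts of members are near those of all genes.

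Levels of different genes were compared per length, as CPM (counts scaled to a common library total) per kilobase of exons. Over the 6 libraries the mean was 23.8 ± 2.72 (SD, n = 6) for Eppin, 14.6 ± 0.986 for Tubb3, 6.41 ± 2.01 for Rhox8, 5.53 ± 0.829 for Rhox5, 4.41 ± 0.797 for Cldn3 and 2.27 ± 0.229 for Drd4. Every Eppin library was above every Tubb3 library, every Tubb3 library above the 3 genes that follow, and every Drd4 library below them. Rhox8, Rhox5 and Cldn3 overlapped over all libraries. In WT the level of Rhox8 was 8.35 and 6.49, above those of Rhox5 at 5.48 and 5.80. In DKO the level of Rhox8 was 3.79 and 4.13, and those of Rhox5, at 5.80 and 4.01, overlapped with it. The SD of Rhox8 over the libraries includes the difference between genotypes.

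**Figure D4:**
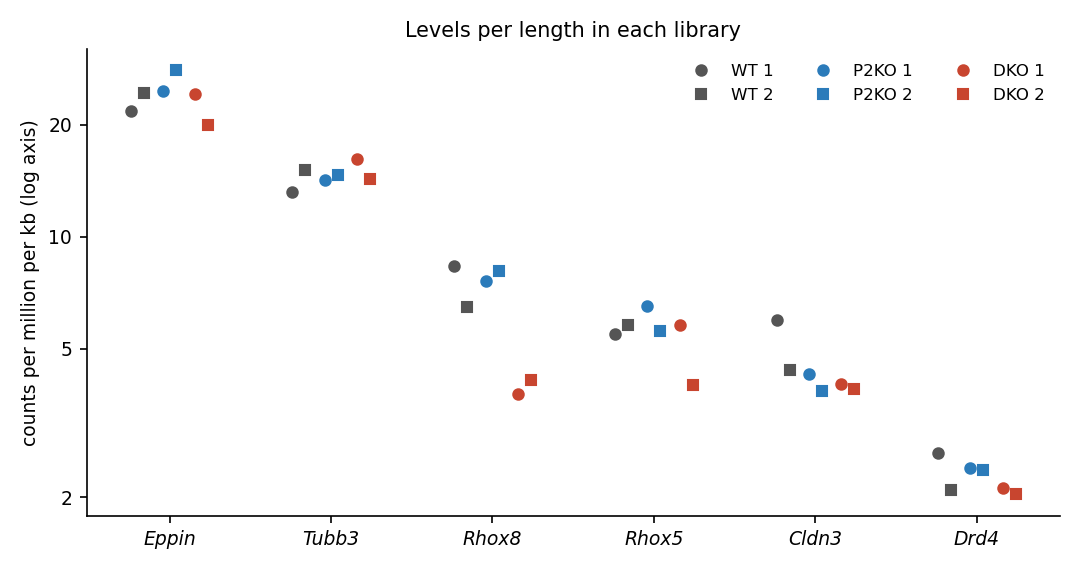
Level of the 6 members in each library (vertical log axis, CPM per kilobase of exons), with colours for genotypes, circles for replicate 1 and squares for replicate 2. Eppin is highest with a mean of 23.8 and Drd4 lowest with 2.27, and the DKO points of Rhox8, at 3.79 and 4.13, lie apart from its other points, at 6.49 to 8.35.

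A list of 19 genes held chaperones and coregulators of steroid receptors and enzymes and a binding protein of androgens, and 18 of them passed the filter. In DKO against WT 2 of the 18 rose and 1 fell, with a list median of 0.12 against -0.0048 for all tested genes. Ncoa3, a coactivator of nuclear receptors, had normalised counts of 810 and 657 in WT and 938 and 944 in DKO (log2 fold change 0.36, SE 0.0876, adjusted p = 0.0110). DESeq2 gave Ncoa3 the same fold and did not call it (adjusted p = 0.0508 on all 6 libraries and 0.147 on 2 genotypes), so that it called 2 of the 18. Ncor1, a corepressor, had 3367 and 2836 in WT and 3911 and 3959 in DKO (log2 fold change 0.34, SE 0.0674, adjusted p = 0.00119). Over the 12 alternatives that left out no library, Ncor1 ran from 0.22 to 0.35 and its call held, and Ncoa3 ran from 0.30 to 0.36. Kdm1a, a histone lysine demethylase, had 3700 and 3552 in WT and 3088 and 2865 in DKO (log2 fold change -0.28, SE 0.0663, adjusted p = 0.00854). Without the second WT library Ncoa3 had 0.21 (adjusted p = 0.415) and Ncor1 0.22 (adjusted p = 0.0677). Without either DKO library Ncoa3 had 0.36 in each case (adjusted p = 0.112 and 0.134), and without the second Kdm1a had -0.23 (adjusted p = 0.263). Kdm1a lies on chromosome 4, as do Padi2 and Padi4. In P2KO against WT and in DKO against P2KO, 0 of the 18 were called by edgeR with TMM scaling or by DESeq2, both on all 6 libraries, with 2 and 3 at an unadjusted p under 0.05.

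Other Sertoli cell genes linked to androgen or to FSH, the pituitary hormone that also acts on Sertoli cells, did not pass the test with TMM scaling on all 6 libraries. Of 12 genes tied to androgen action, which include junction and cytoskeleton genes, 11 passed the filter and 0 were called in any comparison by edgeR with TMM scaling or by DESeq2, both on all 6 libraries. An unadjusted p under 0.05 was found for 0 in P2KO against WT, 4 in DKO against WT and 3 in DKO against P2KO. Their median in DKO against WT was 0.10, with a range of -0.07 to 0.21. Cdh2, the N-cadherin gene, had the largest value there (0.21, adjusted p = 0.112), and Tjp1, which encodes the junction protein ZO-1, followed (0.20, adjusted p = 0.151). Over the 12 alternatives that left out no library, Cdh2 ran from 0.14 to 0.21 and Tjp1 from 0.14 to 0.20. Without the first WT library Tjp1 was called in DKO against WT (0.32) and in P2KO against WT (0.26, where all libraries gave 0.14), while without the second it had 0.077 and 0.017 and was not called. Cdh2 was called in DKO against P2KO without either WT library (0.26 in each case). Of 5 genes for the FSH receptor, inhibin subunits and aromatase, 4 passed the filter, 0 were called by either tool and 0 had an unadjusted p under 0.05, while DESeq2 gave 1 of the 4 no adjusted p in the comparisons of DKO. Cyp19a1, the aromatase gene, had a log2 fold change of -0.11 in DKO against WT, and Inhbb, an inhibin subunit gene, had -0.06.

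**Figure D5:**
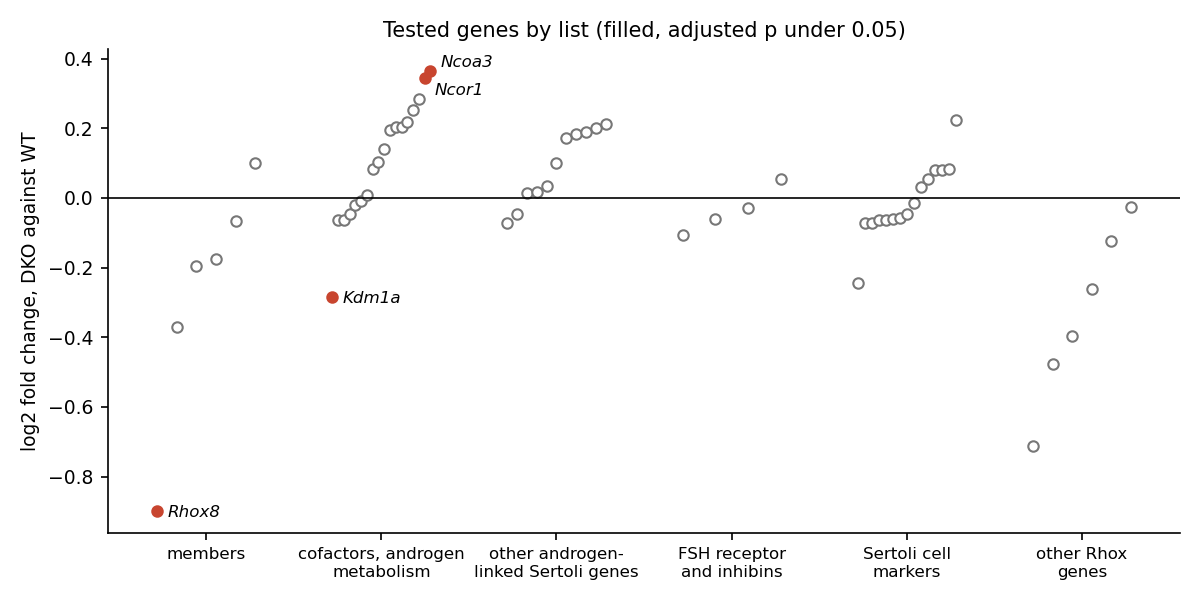
Log2 fold change in DKO against WT (vertical axis) of every tested gene in 6 lists (horizontal axis), in order of size within a list, with filled points for an adjusted p under 0.05. The filled points are Rhox8 at -0.90, Kdm1a at -0.28, Ncor1 at 0.34 and Ncoa3 at 0.36. The Sertoli cell markers share Cldn11 and Vim with the list tied to androgen action, and Fshr and Inhbb with the list for FSH.

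Relatives of the members by family were not called either. Of 18 WAP four-disulfide genes, relatives of Eppin, 7 passed the filter, and the largest differences in DKO against WT were those of Wfdc10 (-0.45, adjusted p = 0.189) and Wfdc6a (-0.25, adjusted p = 0.493). Wfdc10 had normalised counts of 137 and 123 in WT, 120 and 145 in P2KO, and 95.8 and 94.4 in DKO. Of 35 claudins 19 passed, and the largest were those of Cldn34c1 (-1.40, adjusted p = 0.341) and Cldn7 (-0.95, adjusted p = 0.371), both with at most 21.3 normalised counts in a library. With single libraries left out these ran from -2.04 to -0.46 for Cldn34c1 and from -1.22 to -0.57 for Cldn7, with both ends of each range set by the WT libraries, and from -0.47 to -0.071 for Wfdc6a. Of 8 beta tubulins 5 passed, and the largest were those of Tubb2a (0.32, adjusted p = 0.151) and Tubb3 itself. In each of these families 0 genes were called in any of the 3 comparisons by edgeR or by DESeq2 on all 6 libraries. DESeq2 gave no adjusted p to 7 of the 19 claudins and 1 of the 7 WAP four-disulfide genes in the comparisons of DKO. An unadjusted p under 0.05 was found in DKO against WT for 1 WAP four-disulfide gene, 2 claudins and 1 beta tubulin.

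No member has a near-identical copy among the annotated transcripts. The closest stretch of another gene was 86.9% identical over 1330 bases for Tubb3 (in Tubb6), 84.3% over 376 for Rhox8 (in Fcgr2b), 75.1% over 526 for Cldn3 (in Cldn4), 70.2% over 282 for Eppin (in Wfdc6a) and 84.6% over 78 for Drd4 (in Drd2). For Rhox5 none was found.

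Over the 6 libraries, Pearson's correlation of log2 CPM between members ran from -0.69 to 0.81. The highest values were 0.81 between Rhox8 and Drd4, 0.70 between Drd4 and Cldn3 and 0.69 between Rhox5 and Eppin, and Rhox5 and Rhox8 had 0.50. Tubb3 had negative values with Rhox8 (-0.61), Drd4 (-0.69) and Cldn3 (-0.67). These are descriptions over n = 6 libraries that share genotype differences.

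The tested genes with the most similar pattern were sought among 15084 genes with a mean of at least 50 counts. They were Fbxo2 (Pearson's r = 0.991) and Iba57 (0.988) for Rhox8, Prpsap1 (0.996) and Snx17 (0.992) for Rhox5, Bcl2l11 (0.991) and G730003C15Rik (0.980) for Eppin, Cactin (0.994) and Actr8 (0.994) for Drd4, 4930594M22Rik (0.995) and H2afb3 (0.992) for Cldn3, and Cpne3 (0.986) and Ccdc127 (0.986) for Tubb3. Fbxo2 and Cpne3 lie on chromosome 4. No member was among the genes most like another member. Depending on the member, 11 to 80 genes had r above 0.95 with it.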

How the data were processed

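The authors sequenced strand-specific poly(A) libraries, trimmed reads with Trim Galore, used STAR for alignment to GRCm38 and for counting, and deposited raw counts per gene, without normalization. The strand setting of the counts is not given in the sources used here. All 55536 identifiers matched GENCODE mouse release 21. Genotypes came from the labels.

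Counts were tested in R 4.3.3 with edgeR 4.0.16 (filterByExpr, minimum count 10; TMM; glmQLFit and glmQLFTest on all 6 libraries; 3 residual degrees of freedom; two-sided; Benjamini-Hochberg over 20744 genes). The p-values rest on the spread between mice of the same genotype, with 2 per genotype, pooled over the 3 genotypes. The fit draws the spread of each gene toward that of genes at large. The p-values and intervals of a gene thus do not come from its own libraries alone. A normalised count is a count divided by the TMM-scaled library size, itself divided by the geometric mean of these sizes. SE is the absolute log2 fold change divided by the square root of F. On simulated counts of DKO against WT (20436 genes), 78% of genes with a log2 change of 1 were called and 94% of those with 2, with 8 false calls. Copies were sought with BLAST 2.17.0.

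Alternatives were RLE or upper-quartile scaling, no filter, a mean of 50 counts, a prior count of 2 for 0.125, a replicate block, DESeq2 1.42.0, edgeR on 2 genotypes, genes off chromosome 4, a length offset (lowess, span 0.3) with and without the block, and leaving out each library.

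The members and lists were chosen with earlier results of these data known. Named genes are the members, Padi2 and Padi4, the called genes of each list or otherwise the 2 with the largest difference in DKO against WT, and for each member the 2 most correlated genes. Cell type markers, Rhox11, Rhox11-ps2, Rhox13, Rhox2a, Rhox3f and Rhox3h were named after their values were seen. A further gene of the rule and of a list is not reported here.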

Additional observations from a re-analysis of the deposited data

How the results depend on the processing

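On simulated counts, 78% of genes with a log2 change of 1 were called, and smaller changes were not simulated, so a missing call does not show an equal level. The call of Rhox8 held under every alternative that gave it an adjusted p. In DKO against WT its log2 fold change ran from -0.92 to -0.83 over 12 alternatives and from -1.08 to -0.72 with single libraries left out. In DKO against P2KO, DESeq2 on those 2 genotypes gave Rhox8 no adjusted p (log2 fold change -0.99), and no count of members was made for that setting. Members called otherwise stayed at 0, 1 and 1 in the 3 comparisons.

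The replicate numbers do not pair the samples: deviations of libraries with the same number correlated at -0.0572 (WT and P2KO), 0.0574 (WT and DKO) and -0.0502 (P2KO and DKO). With the replicate block Rhox8 had a log2 fold change of -0.90 in DKO against WT (edgeR adjusted p = 0.00153), called genes went from 70 to 45 in P2KO against WT, and no call of another gene run in these alternatives changed. The cell type markers other than Aard and Inhbb were not run.

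Calls over all genes in P2KO against WT (70) were 140 without the filter, 24 off chromosome 4, and 41 and 40 by DESeq2 on all libraries and on 2 genotypes. DESeq2 gave 403 and 296 in DKO against WT (668). In DKO against P2KO (250) DESeq2 on all libraries gave 162 and edgeR on 2 genotypes 579. Leaving out single libraries gave 53 to 311, 250 to 1065 and 108 to 622. Ncoa3 lost its call under DESeq2 (0.36 on all libraries and on 2 genotypes). Called with all libraries were Aard in DKO against WT (-0.26 with upper-quartile scaling, -0.25 with no filter or a mean of 50 counts), Padi4 in P2KO against WT (-1.63 with no filter), and, on 2 genotypes in DKO against P2KO, Ncor1 (0.22), Kdm1a (-0.20) and Cdh2 (0.26) by edgeR and Ncor1 (0.22) by DESeq2. Without the first WT library Tjp1 was called in DKO against WT (0.32) and Padi4 (-1.96), Ncor1 (0.25), Tjp1 (0.26) and Aard (0.28) in P2KO against WT. Without the second, Aard was called in DKO against WT (-0.40). Without either, Ncor1 (0.22), Kdm1a (-0.20) and Cdh2 (0.26) were called in DKO against P2KO.

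The 8 changes of sign outside the left-out libraries all concerned uncalled values near 0, and their cause was not tested. With the length offset, without and with the replicate block, Eppin in DKO against WT became 0.022 and 0.023, Rhox13 0.058 and 0.054, and Cldn3 in DKO against P2KO 0.012 and 0.017. Cldn7 in P2KO against WT became 0.014 with both, and Cyp19a1 -0.0015 with upper-quartile scaling. With single libraries left out, these log2 fold changes spanned 0. In P2KO against WT they were Tubb3 (-0.070 to 0.13), Rhox8 (-0.092 to 0.27), Drd4 (-0.14 to 0.19), Rhox5 (-0.018 to 0.20), Rhox11 (-0.028 to 0.13), Rhox13 (-0.48 to 0.17), Cyp19a1 (-0.10 to 0.12), Inhbb (-0.14 to 0.056), Cldn34c1 (-0.72 to 0.86), Cldn7 (-0.35 to 0.35), Wfdc10 (-0.12 to 0.16), Wfdc6a (-0.13 to 0.012), Aard (-0.033 to 0.28) and Kdm1a (-0.19 to 0.010). For DKO against WT they were Eppin (-0.22 to 0.061), Rhox5 (-0.50 to 0.036), Rhox13 (-0.18 to 0.12), Drd2 (-0.037 to 0.16) and Cyp19a1 (-0.27 to 0.036). In DKO against P2KO they were Cldn3 (-0.10 to 0.042), Tubb3 (-0.021 to 0.16), Rhox13 (-0.20 to 0.45), Padi2 (-0.40 to 0.29), Tjp1 (-0.022 to 0.15), Inhbb (-0.12 to 0.079) and Cyp19a1 (-0.28 to 0.025).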
